A study of Mus musculus with 27 samples.

Results

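The absorption of dietary fat and cholesterol was examined through 32 genes taken by name for their roles in fatty acid uptake, re-esterification, chylomicron assembly, cholesterol transport, and lipid droplets and lipolysis. All 32 were found by symbol among the 46078 Ensembl genes of the count tables, and all 32 were among the 16741 genes that passed the filter on low counts. RNA-Seq was carried out on epithelium scraped from the distal ileum of 27 male C57BL/6 mice, 3 in each of 9 groups. Vehicle mice received sesame oil, and the other groups received TCDD in sesame oil at 8 doses in µg/kg, the lowest 0.01 and 0.03, the middle ones 0.1, 0.3 and 1, and the highest 3, 10 and 30, by gavage every 4 d over 28 d from postnatal day 28. Every mouse had been fasted before the tissue was taken, and what the gut held at that time is not given in the sources used here. TCDD is a persistent ligand of the aryl hydrocarbon receptor, AhR. The mice carried no transgene or deletion, and each library came from 1 mouse.

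In the enterocyte, long-chain fatty acids and monoacylglycerol from the lumen are bound by fatty acid binding proteins, activated to acyl-CoA and rebuilt into triacylglycerol at the endoplasmic reticulum. Microsomal triglyceride transfer protein loads this triacylglycerol onto apolipoprotein B to form chylomicrons, while the surplus is held in cytosolic droplets coated by perilipins and later released by lipases. Cholesterol enters through NPC1L1, is esterified by ACAT2, and is returned to the lumen by ABCG5 and ABCG8 or exported to HDL by ABCA1. Most fat is absorbed in the jejunum, and the distal ileum normally receives what has passed it.

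Counts on genes totalled 12.26 to 17.14 M per mouse (median 14.14 M). The level given below is CPM, counts scaled to the TMM-adjusted total of each library, and a gene was called where it changed at least 1.5-fold with an adjusted p no higher than 0.05 in edgeR's quasi-likelihood test. The AhR target *Cyp1a1* stood at 0.211, 0 and 0.138 CPM with vehicle and 1062, 1881 and 2279 CPM with 30 µg/kg. All 7 markers of the distal ileum had counts in all 27 mice, from 1525 CPM or more of the cubilin gene *Cubn* and 189.1 CPM or more of the bile acid transporter *Slc10a2* down to 1.392 CPM of *Fgf15* in its lowest mouse. Of these 7, 4 were called at 30 µg/kg, 2 higher and 2 lower (57.1%, against 9.40% of all genes). The 4 were *Slc10a2*, *Fabp6*, *Fgf15* and *Cubn*. Of 5 colon markers, *Hoxb13*, *Aqp8* and *Car1* were at 0 counts in 26, 25 and 16 of the 27 mice, while *Car4* (57.59 to 173 CPM) and *Slc26a3* (99.23 to 182.5 CPM) had counts in all of them. Mouse 1 at 30 µg/kg had the highest summed level of 6 adipocyte markers, 82.9 CPM against 2.63 and 0.651 CPM in mice 2 and 3, and a smooth muscle sum of 345 CPM against 78.6 and 36.2 CPM. The library indexes were used once in the 16 mice from vehicle to 0.3 µg/kg with mouse 1 at 1 µg/kg. They were used again in the other 11 mice. Between vehicle or doses up to 0.3 µg/kg and doses above 1 µg/kg, the effects of dose and index use cannot be told apart. Comparisons within 1 index use, such as those among doses above 1 µg/kg, do not carry this limit. A clock score, the first principal component of the log2 CPM of 13 clock genes, lay between -6.42 and -5.06 in vehicle mice and between 5.39 and 7.02 at 30 µg/kg. It was 2.07 or above in every mouse from 1 to 30 µg/kg, and at or below -0.58 in the others except mouse 3 at 0.01 µg/kg (3.41). Fits that bear on these are given beside the results.

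The members called at 1 or more doses were *Fabp1*, *Plin2*, *Mgll* and *Pla2g12b*, and the bases just before their annotated starts are shown so that the letters AhR and the clock proteins are known to bind can be seen beside the values. The motifs were searched on both strands of the RefSeq promoter windows (GRCm38.p6; 250 bases before to 50 after each start), namely GCGTG, the core to which AhR binds, CACGTG, the E-box of the clock proteins, and AGGTCA, the half-site of nuclear receptors such as PPARA, the last of which was added after the values had been seen. The stretches below end before the first annotated exon base, run 5′ to 3′ on the strand of the gene, and carry a motif or its reverse complement in capitals. They lie at chr6:71199629-71199826 (+ strand) for *Fabp1*, chr4:86670061-86670309 (- strand) for *Plin2*, chr6:88724162-88724411 (+ strand) for the first of the RefSeq starts of *Mgll*, and chr10:59403435-59403659 (+ strand) for *Pla2g12b*.
Fabp1: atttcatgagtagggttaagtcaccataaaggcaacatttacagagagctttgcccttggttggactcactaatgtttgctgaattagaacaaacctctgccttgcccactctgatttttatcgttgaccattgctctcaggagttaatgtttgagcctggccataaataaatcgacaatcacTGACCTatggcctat
Plin2: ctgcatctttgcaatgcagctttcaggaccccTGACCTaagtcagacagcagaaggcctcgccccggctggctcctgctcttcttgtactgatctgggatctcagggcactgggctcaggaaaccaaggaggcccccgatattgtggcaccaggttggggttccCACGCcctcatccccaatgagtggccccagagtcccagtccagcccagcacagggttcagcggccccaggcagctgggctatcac
Mgll: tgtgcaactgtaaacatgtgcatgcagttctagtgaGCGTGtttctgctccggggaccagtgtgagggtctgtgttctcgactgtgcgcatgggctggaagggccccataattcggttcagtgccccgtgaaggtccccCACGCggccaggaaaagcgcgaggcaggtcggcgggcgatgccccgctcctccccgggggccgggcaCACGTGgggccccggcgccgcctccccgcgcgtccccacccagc
Pla2g12b: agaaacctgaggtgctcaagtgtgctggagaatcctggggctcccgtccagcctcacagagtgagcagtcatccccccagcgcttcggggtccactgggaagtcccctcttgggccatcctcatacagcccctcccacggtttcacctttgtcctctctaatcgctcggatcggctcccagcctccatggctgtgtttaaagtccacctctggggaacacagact
The *Fabp1* stretch held 1 AGGTCA in reverse and neither of the other motifs. The *Plin2* stretch held 1 GCGTG and 1 AGGTCA, both in reverse, and its only CACGTG falls across the annotated start, outside the letters shown. *Mgll* held 2 GCGTG and 1 CACGTG here and 6 further GCGTG in the window of its other start, while *Pla2g12b* held none of the motifs. Of all 32851 promoter windows, 32.4% held GCGTG, 7.15% CACGTG and 16.3% AGGTCA. The table gave 28 windows for 25 of the 32 members, and 9, 3 and 7 of these windows held the motifs in the same order. Gene positions given below are those of the same build. A match is a run of letters and says nothing of whether a factor was bound.

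In vehicle mice the members covered a wide range of levels, compared here as CPM per kb of exon. *Apoa1*, the apolipoprotein of HDL and of new chylomicrons, was the most abundant at 2125 ± 263 CPM per kb (SD, n = 3). *Fabp2*, the intestinal fatty acid binding protein, followed at 1516 ± 252, then *Apob*, the structural protein of chylomicrons, at 545 ± 31.6, and *Npc1l1*, the cholesterol importer, at 245 ± 8.62. *Mttp*, which lipidates apolipoprotein B, stood at 182 ± 15.4. The 3 vehicle mice of each of these 5 genes did not overlap with those of the next gene in the order. At the other end, *Scarb1*, a receptor for HDL, was the least abundant at 0.317 ± 0.0669, *Mgll* was at 1.67 ± 0.471 and *Cd36* at 1.75 ± 1.31. Of the 31 pairs of neighbours in the order, 18 overlapped in their vehicle mice, so the middle of the order is not resolved by these mice. *Fabp1*, the liver-type binding protein, was 5.84 ± 3.68 CPM per kb, so that its relative *Fabp2* exceeded it in every vehicle mouse.

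**Figure D1:**
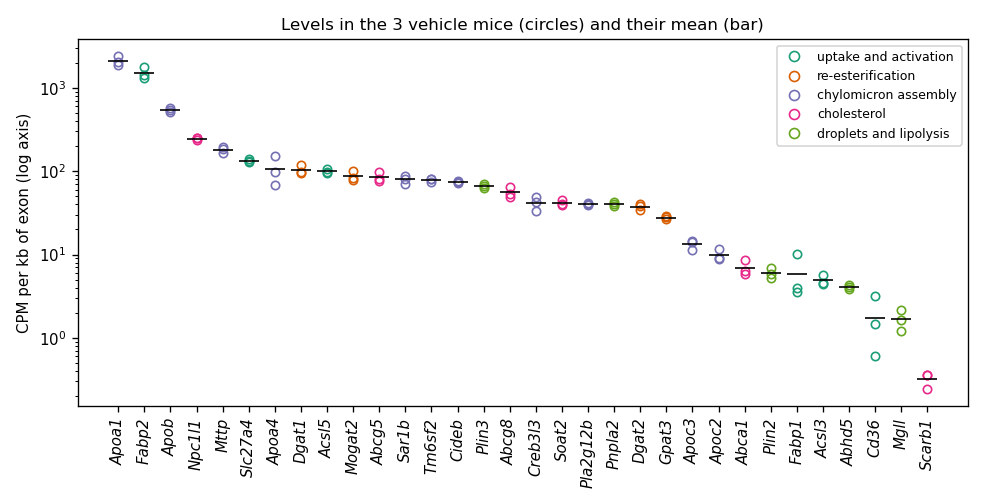
Levels of the 32 genes in the 3 vehicle mice as CPM per kb of exon on a log axis, in falling order of the mean, coloured by role; circles are mice and bars are means. *Apoa1*, *Fabp2* and *Apob* stand at the top, and *Cd36*, *Mgll* and *Scarb1* at the bottom.

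Against the shared vehicle mice, none of the 32 genes was called from 0.01 to 3 µg/kg. At those doses no gene of the whole table was called up to 0.3 µg/kg, and 0.591% and 1.11% of all tested genes were called at 1 and 3 µg/kg. At 10 µg/kg, 2 of 32 members were called, against 2.53% of all genes. *Fabp1* was higher (1.76% of all genes were called higher) and *Pla2g12b* lower (0.771% called lower). At 30 µg/kg, 3 of 32 members were called, all higher, *Fabp1*, *Plin2* and *Mgll*. The share of the members, 9.38%, lay beside that of all genes, 9.40%, with 5.42% of all genes called higher. With the fold change limit dropped, *Abhd5* joined them, and 17.8% of all genes were called. The median log2 fold change of the members was 0.22 at 30 µg/kg, with 22 of 32 above 0, where that of all genes was 0.02. It was 0.23 at 3 µg/kg with 30 of 32 above 0, where that of all genes was 0.00, and -0.07 at 10 µg/kg with 13 above 0. The summed level of 8 enterocyte markers was 22790, 23520 and 22210 CPM with vehicle. It was 28260, 30830 and 29000 CPM with 3 µg/kg, without overlap. The median log2 fold change of the 8 was 0.24 at 3 µg/kg, 0.04 at 10 µg/kg and 0.10 at 30 µg/kg. The sum was also higher at 1 µg/kg (24600 to 27860 CPM), where the median of the members was -0.01, and was 22840 to 30620 CPM at 10 µg/kg. Its part in the values of the members was not tested.

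**Figure D2:**
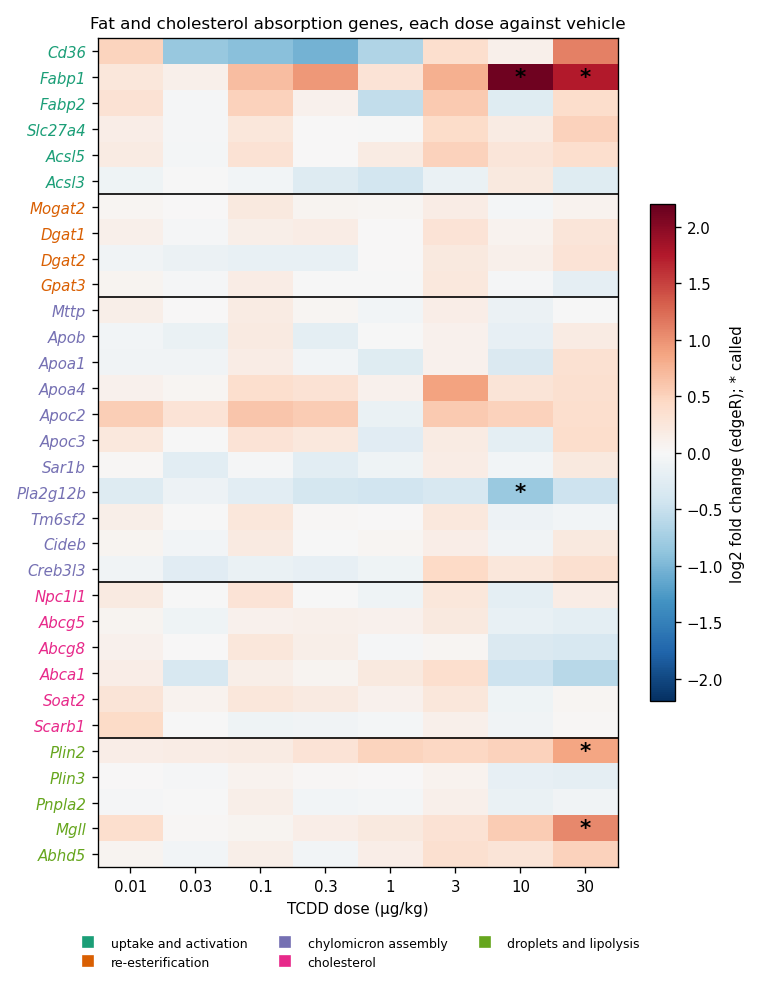
Log2 fold change of each member (rows, grouped by role) at each TCDD dose in µg/kg (columns) against the same 3 vehicle mice; red is higher, blue is lower, and a star marks a call. Stars stand at 10 and 30 µg/kg only, on *Fabp1* (2.13 and 1.74), *Pla2g12b* (-0.82 at 10), *Plin2* (0.87 at 30) and *Mgll* (1.06 at 30).

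Counting mice rather than tests, all 3 mice lay above all 3 vehicle mice for 10 members at 3 µg/kg, 2 at 10 µg/kg and 4 at 30 µg/kg, where 12.4%, 11.5% and 13.7% of all genes did. All 3 lay below for 1, 3 and 2 members at these doses, where 12.1%, 11.8% and 13.3% of all genes did. The smallest p of an exact permutation test of 3 mice against 3 is 0.1. When all 9 groups were tested for any difference, edgeR gave an adjusted p of at most 0.05 to 4 of 32 members (9.53% of all genes), *Mgll* (0.00954), *Plin2* (0.0219), *Fabp1* (0.0242) and *Abhd5* (0.0271). A linear trend over the rank of the dose was called in 6 of 32 members, against 26.2% of all genes. Those that rose with dose (13.4% of all genes) were *Fabp1*, by 0.24 on the log2 scale per step, *Mgll* by 0.10, *Plin2* by 0.09 and *Abhd5* by 0.06. The falling ones (12.8% of all genes) were *Pla2g12b*, at -0.07 per step, and *Abcg8*, a subunit of the sterol exporter, at -0.05. Within the 16 mice of the first index use no member had a called trend, and within the 11 of the second only *Mgll* did (0.32 per step, standard error 0.07, adjusted p = 0.0397, edgeR). Of all genes, 0.144% and 1.44% had a called trend in these fits.

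*Fabp1* (chromosome 6 from 71199827 to 71205023, + strand) encodes the liver-type fatty acid binding protein, which in the gut is mostly a product of the duodenum and jejunum. Its counts were low, 28.0 to 269 per mouse, and it stood at 2.18, 5.58 and 1.94 CPM with vehicle. It stood at 5.35, 6.86 and 4.46 CPM with 3 µg/kg, 12.6, 17.8 and 12.1 CPM with 10 µg/kg and 8.16, 16.6 and 7.49 CPM with 30 µg/kg. All 6 mice of the upper doses lay above every vehicle mouse, while the mice at 3 µg/kg overlapped with them. The change was 4.39-fold at 10 µg/kg (log2 fold change 2.13, standard error 0.52, 95% interval 1.05 to 3.22, adjusted p = 0.021, edgeR). The change was 3.34-fold at 30 µg/kg (log2 fold change 1.74, standard error 0.53, 95% interval 0.65 to 2.83, adjusted p = 0.0242, edgeR), and the exact permutation p was 0.1 at both. The gene was uneven at lower doses as well, where mouse 1 at 0.1 µg/kg had 10.0 CPM beside 2.54 and 2.88, and mouse 2 at 0.3 µg/kg had 11.1 beside 1.95 and 5.83. Those mice and mouse 2 at 30 µg/kg were also the highest of the 27 in the proximal gene *Lct*, lactase, with 127, 195.5 and 147.9 CPM where the median of the 27 was 19.99. *Lct* belongs to a list of 6 proximal markers, of which *Slc40a1* was called lower at 3, 10 and 30 µg/kg. The sum of the 6 was 191.6 to 208.9 CPM with vehicle. It was 69.26 to 123 CPM with 10 µg/kg and 76.63 to 200.6 CPM with 30 µg/kg. With the level of *Lct* and *Gata4* as a covariate, an alternative chosen after the values were seen, *Fabp1* stayed called at 10 µg/kg (log2 fold change 2.12, adjusted p = 0.000462, edgeR) and at 30 µg/kg (1.27, adjusted p = 0.0139). Single mice decided both calls. At 30 µg/kg it was lost without vehicle mouse 1, without vehicle mouse 3 and without mouse 2 at 30 µg/kg, with adjusted p values of 0.099, 0.121 and 0.17, and at 10 µg/kg without vehicle mouse 1, vehicle mouse 3 or mouse 2 at 10 µg/kg (0.104, 0.126 and 0.0606). Adding index use as a covariate gave a log2 fold change of 1.24 at 10 µg/kg and 0.84 at 30 µg/kg, both uncalled. Only the mice at 1 µg/kg set that term, so the fit cannot separate index use from dose at 10 or 30 µg/kg. In an edgeR fit of the 6 mice alone the adjusted p at 30 µg/kg was 0.0668. The clock score as a covariate ended both calls, with log2 fold changes of 2.15 and 1.76 at 10 and 30 µg/kg (adjusted p = 1 and 0.826, edgeR). The score did not overlap between vehicle and these doses, so this fit separates it poorly from dose. It called only 4 and 7 genes of the whole table at 10 and 30 µg/kg.

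*Fabp2* (chromosome 3 from 122895072 to 122899506, + strand), the binding protein that predominates in the small intestine, was the most abundant per length of the uptake group and was not called. It was 1398, 1731 and 1258 CPM with vehicle and 752, 3344 and 1663 CPM with 30 µg/kg. The 3 treated mice spanned 4.45-fold with mouse 1 below and mouse 2 above all vehicle mice, and the log2 fold change was 0.39 with a 95% interval of -0.43 to 1.22. *Slc27a4*, the fatty acid transport protein FATP4 that also acts as an acyl-CoA synthetase, stood at 568, 619 and 589.5 CPM with vehicle, 726, 839 and 779.7 CPM with 3 µg/kg and 453, 1081 and 983 CPM with 30 µg/kg. Every mouse at 0.01, 0.1 and 3 µg/kg and mice 2 and 3 at 30 µg/kg lay above the vehicle mice. Mouse 1 at 30 µg/kg lay below them. The test gave a log2 fold change of 0.50 at 30 µg/kg (adjusted p = 0.0863, edgeR), and without mouse 1 at that dose 0.77 (adjusted p = 0.000291, called). *Acsl5*, an acyl-CoA synthetase of the enterocyte, had log2 fold changes of 0.51 at 3 µg/kg and 0.36 at 30 µg/kg, with adjusted p values of 0.188 and 0.187. *Acsl3*, a synthetase of growing lipid droplets, was at 11.0 to 31.2 CPM over the 27 mice and -0.26 at 30 µg/kg (adjusted p = 0.475).

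*Cd36* (chromosome 5 from 17781690 to 17888801, - strand), the scavenger receptor for long-chain fatty acids, varied most among mice of the same dose. It stood at 5.21, 2.2 and 11.4 CPM with vehicle and 27.1, 8.74 and 4.8 CPM with 30 µg/kg, with only mouse 1 at 30 µg/kg above the vehicle mice. The 6 mice highest in *Cd36* of the 27 were the 6 highest in the summed adipocyte markers, in the same order, from mouse 1 at 30 µg/kg (27.1 CPM of *Cd36*, 82.9 CPM of markers) through mouse 3 at 3 µg/kg, mouse 1 at 0.01 µg/kg, mouse 1 at 10 µg/kg and vehicle mouse 3 to mouse 3 at 0.01 µg/kg (9.69 and 25.4). The log2 fold change at 30 µg/kg was 1.11 with a 95% interval of -0.35 to 2.57 and did not pass the test (adjusted p = 0.3, edgeR), and it was 0.07 without mouse 1. Mice 2 and 3 at 30 µg/kg held 8.74 and 4.8 CPM of *Cd36* where *Plin1*, the coat protein of fat cell droplets, was at 0 in both and *Adipoq*, adiponectin, was at 0 in mouse 3. With the adipocyte level as a covariate, chosen after the values were seen, *Cd36* was called at 30 µg/kg (1.10, adjusted p = 0.0113, edgeR). In whole scrapings such as these, fewer cells of a type and less RNA per cell cannot be told apart.

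**Figure D3:**
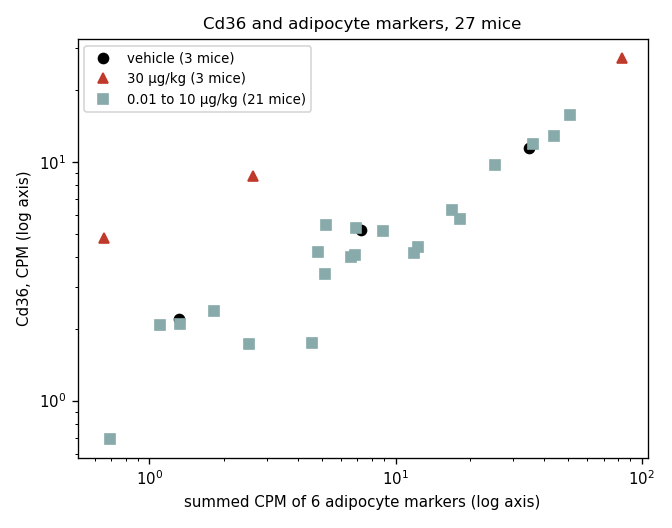
CPM of *Cd36* against the summed CPM of 6 adipocyte markers (*Adipoq*, *Plin1*, *Cfd*, *Retn*, *Fabp4*, *Lep*) in the 27 mice, both on log axes. *Cd36* is high wherever the markers are high, and mice 2 and 3 at 30 µg/kg (8.74 and 4.80 CPM) lie above the other mice of low marker level.

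**Figure D4:**
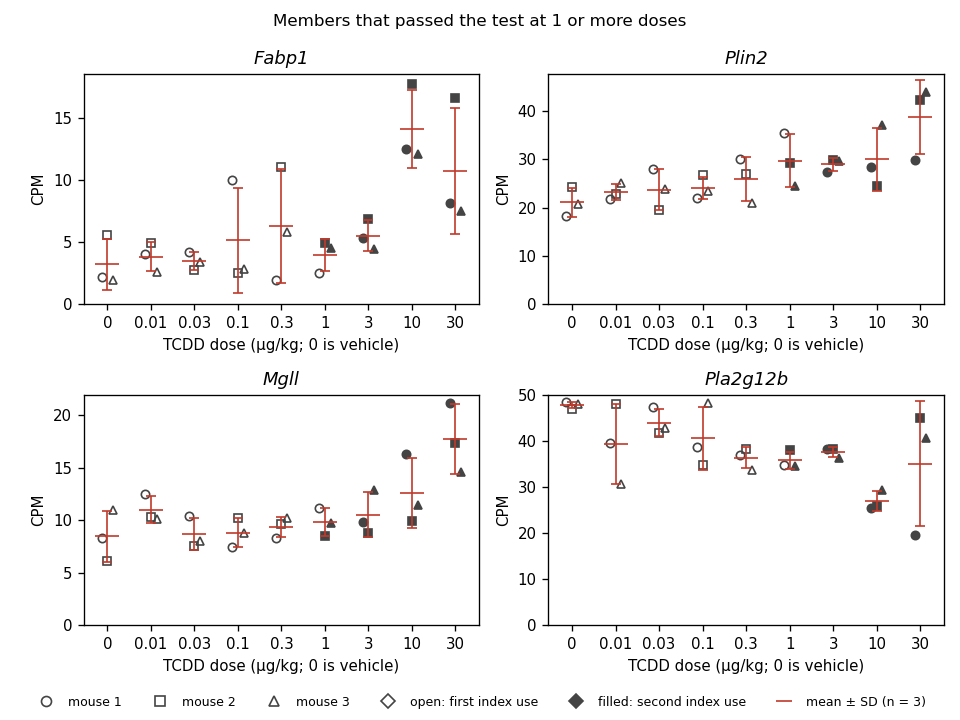
CPM of *Fabp1*, *Plin2*, *Mgll* and *Pla2g12b* in every mouse by dose in µg/kg (0 is vehicle), with mean and SD of 3 mice in red; open and filled marks are the first and second use of the library indexes. *Fabp1* is highest at 10 and 30 µg/kg, *Plin2* and *Mgll* at 30 µg/kg, and *Pla2g12b* is lowest at 10 µg/kg.

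*Dgat1* and *Dgat2*, which catalyse the last step of triacylglycerol synthesis, *Mogat2*, which joins monoacylglycerol to a fatty acid, and *Gpat3*, of the glycerol phosphate route, were not called at any dose. Their log2 fold changes at 30 µg/kg were 0.26, 0.31, 0.08 and -0.21 in that order, and the 95% intervals lay between -0.49 and 0.73 for all 4. *Dgat1*, the most abundant of them per length, was 299.5, 361 and 288 CPM with vehicle, 387, 393 and 385 CPM with 3 µg/kg and 304, 454 and 376 CPM with 30 µg/kg. The mice at 3 µg/kg lay above the vehicle mice and those at 30 µg/kg overlapped with them. *Mogat2* was at 152, 187 and 142 CPM with vehicle against 147, 182 and 180 CPM with 30 µg/kg, all treated mice lying within the vehicle range, and its interval was -0.20 to 0.36.

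Of the 11 genes of chylomicron assembly only *Pla2g12b* was called, at 10 µg/kg. *Apob* (chromosome 12 from 7977648 to 8016835, + strand), on which each chylomicron is built, stood at 7486, 7207 and 8071 CPM with vehicle, 5643, 7002 and 7442 CPM with 10 µg/kg and 3118, 13720 and 9099 CPM with 30 µg/kg. The highest and the lowest *Apob* of the 27 mice were mice 2 and 1 at 30 µg/kg, a 4.4-fold span within 1 group where the vehicle mice spanned 1.12-fold. The log2 fold change of 0.19 carried an interval of -0.40 to 0.77. *Mttp* was 1028, 1220 and 1136 CPM with vehicle and 827, 1420 and 1115 CPM with 30 µg/kg. Mouse 1 lay below and mouse 2 above the vehicle mice, its log2 fold change being -0.01 with an interval of -0.37 to 0.35. *Apoa1* was 2556, 2981 and 2343 CPM with vehicle and 1351, 4607 and 3942 CPM with 30 µg/kg, where mouse 1 lay below and mice 2 and 3 above the vehicle mice. Its log2 fold change was 0.33 (adjusted p = 0.478, edgeR) and 0.67 without mouse 1 (adjusted p = 0.0268, called).

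*Apoa4*, an apolipoprotein secreted on chylomicrons after a meal, was 124, 274 and 177 CPM with vehicle, 260.2, 406 and 392 CPM with 3 µg/kg and 100.1, 469.9 and 167 CPM with 30 µg/kg. Its largest mean difference from vehicle was at 3 µg/kg, where 2 of 3 mice exceeded the vehicle mice (0.88 on the log2 scale with a standard error of 0.52, adjusted p = 0.485, edgeR). *Apoc2*, the activator of lipoprotein lipase, and *Apoc3*, its inhibitor, ranged over 4.48 to 20.8 CPM and 7.45 to 26.4 CPM in the 27 mice and were 0.37 and 0.38 on the log2 scale at 30 µg/kg, both uncalled. *Creb3l3*, a transcription factor for apolipoprotein genes, was 100, 149 and 128 CPM with vehicle and 52.0, 304 and 127 CPM with 30 µg/kg, the widest span of any member at that dose. Mice 1 and 2 lay below and above every vehicle mouse, and the log2 fold change was 0.36 with an interval of -0.47 to 1.19. *Sar1b*, the GTPase of the vesicles that carry prechylomicrons, *Tm6sf2* and *Cideb*, which help to lipidate the particles, had log2 fold changes of 0.22, -0.06 and 0.21 at 30 µg/kg, with intervals between -0.42 and 0.50.

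*Pla2g12b* (chromosome 10 from 59403660 to 59421976, + strand) encodes a phospholipase A2 relative without catalytic activity that is needed for the secretion of triacylglycerol on lipoproteins. It was uniform in vehicle mice, at 48.5, 47.1 and 48.2 CPM. It stood at 37.1, 38.3 and 33.9 CPM with 0.3 µg/kg, 34.8, 38.1 and 34.7 CPM with 1 µg/kg, 38.3, 38.3 and 36.5 CPM with 3 µg/kg and 25.6, 26.1 and 29.5 CPM with 10 µg/kg. At each of these 4 doses all 3 mice lay below all 3 vehicle mice, and only the lowest level, at 10 µg/kg, was called (log2 fold change -0.82, standard error 0.19, 95% interval -1.22 to -0.43, adjusted p = 0.0144, edgeR; exact permutation p = 0.1). The fall at 10 µg/kg was to 0.565 of the vehicle level. At 30 µg/kg the 3 mice had 19.7, 45.1 and 40.7 CPM, again all below the vehicle mice but spread over 2.29-fold, and the log2 fold change of -0.45 did not pass (adjusted p = 0.1, edgeR). It was -0.67 without mouse 2 (adjusted p = 0.0358, called) and -0.19 without mouse 1. The call at 10 µg/kg was lost without vehicle mouse 1, vehicle mouse 3 or mouse 1 at 10 µg/kg (adjusted p = 0.0554, 0.0603 and 0.0603), with the log2 fold change between -0.90 and -0.78. Adding index use as a covariate gave a log2 fold change of -0.89 (adjusted p = 0.334, edgeR), and adding the clock score gave -0.39 (adjusted p = 1), so that either ended the call. Only the mice at 1 µg/kg set the index term, so that fit cannot separate index use from dose at 10 µg/kg. The clock score did not overlap between vehicle and 10 µg/kg, and its fit called only 4 genes of the whole table at that dose. Mice 1 and 2 at 10 µg/kg also had high smooth muscle sums, 252 and 394 CPM against 45.5 in mouse 3, and without mouse 2 the log2 fold change of *Pla2g12b* was -0.80 and still called.

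None of the 6 cholesterol genes was called at any dose. *Npc1l1* (chromosome 11 from 6211013 to 6230143, - strand), the most abundant of them per length, was 1122, 1050 and 1109 CPM with vehicle, 705, 908 and 1209 CPM with 10 µg/kg and 488, 1705 and 1484 CPM with 30 µg/kg. Mouse 1 at 30 µg/kg had the lowest and mouse 2 the highest *Npc1l1* of the 27, and the log2 fold change was 0.16 with an interval of -0.42 to 0.74. *Abcg5* and *Abcg8*, whose products pair into the exporter of plant sterols and cholesterol and whose genes overlap head to head on chromosome 17, were 208, 266 and 217 and 186, 241 and 201 CPM with vehicle. At 30 µg/kg they were 159, 229 and 204 CPM and 126, 204 and 163 CPM, with log2 fold changes of -0.22 (adjusted p = 0.191) and -0.35 (adjusted p = 0.103, edgeR). In both genes mouse 1 was lowest and the groups overlapped. Since the counting options are not stated, reads from the overlap of this pair may have been left out or, without strand, shared.

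*Abca1* (chromosome 4 from 53030787 to 53159895, - strand), the exporter of cholesterol to HDL, was 61.3, 88.7 and 65.3 CPM with vehicle, 75.9, 83.5 and 119 CPM with 3 µg/kg, 49.8, 51.5 and 55.0 CPM with 10 µg/kg and 51.5, 54.4 and 35.3 CPM with 30 µg/kg. The mice at 10 and 30 µg/kg all lay below the vehicle mice, those at 3 µg/kg overlapped with them, and the exact permutation p was 0.1 at both upper doses. The log2 fold change was -0.46 at 10 µg/kg (adjusted p = 0.355) and -0.61 at 30 µg/kg (adjusted p = 0.0945, edgeR), short of a call. The difference between 30 and 3 µg/kg, both of the second index use, was -0.98 (standard error 0.25, adjusted p = 0.0526, edgeR), and it was called with library size alone (-1.06, adjusted p = 0.0316) and with DESeq2 (-0.99, adjusted p = 0.0067). *Soat2*, the gene of the enterocyte enzyme ACAT2 that esterifies cholesterol, and *Scarb1* had log2 fold changes of 0.04 and 0.02 at 30 µg/kg. *Scarb1* had only 21.0 to 62.0 counts per mouse, and its interval was -0.61 to 0.66.

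Among the 5 genes of lipid droplets and lipolysis, 2 rose at 30 µg/kg, where 5.42% of all genes were called higher. *Plin2* (chromosome 4 from 86648386 to 86670060, - strand), the perilipin that coats cytosolic droplets in most cells, was 18.2, 24.3 and 20.8 CPM with vehicle. It stood at 35.4, 29.3 and 24.4 CPM with 1 µg/kg, 27.3, 29.9 and 29.6 CPM with 3 µg/kg, 28.3, 24.4 and 37.1 CPM with 10 µg/kg and 29.9, 42.2 and 43.8 CPM with 30 µg/kg. At each of these 4 doses all 3 mice lay above all 3 vehicle mice, and mice 2 and 3 at 30 µg/kg were the highest of the 27. The change at 30 µg/kg was 1.83-fold (log2 fold change 0.87, standard error 0.17, 95% interval 0.51 to 1.23, adjusted p = 0.00135, edgeR), and log2 fold changes of 0.49, 0.46 and 0.50 at 1, 3 and 10 µg/kg did not pass. The call at 30 µg/kg was kept in all 6 fits that left out 1 mouse, with values of 0.77 to 1.00. It was also kept in 11 of 12 other settings. These include index use as a covariate (1.27, adjusted p = 0.0193, edgeR), a term set only by the mice at 1 µg/kg, 35.4 CPM in mouse 1 against 29.3 and 24.4. That fit cannot separate index use from dose at 30 µg/kg. The call was lost with the clock score as a covariate (0.42, adjusted p = 0.842, edgeR). In that fit only 7 genes of the whole table were called at 30 µg/kg, and the score did not overlap between vehicle and that dose.

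*Mgll* (chromosome 6 from 88724412 to 88828360, + strand), monoacylglycerol lipase, which splits the last fatty acid from glycerol, was 8.31, 6.16 and 10.9 CPM with vehicle. It stood at 9.83, 8.81 and 12.9 CPM with 3 µg/kg, 16.3, 9.96 and 11.4 CPM with 10 µg/kg and 21.2, 17.3 and 14.6 CPM with 30 µg/kg. All 3 mice at 30 µg/kg lay above the vehicle mice, while those at 3 and 10 µg/kg overlapped with them. The change was 2.09-fold (log2 fold change 1.06, standard error 0.21, 95% interval 0.63 to 1.49, adjusted p = 0.00116, edgeR). Mouse 1 had the highest *Mgll* of the 27, and without it the log2 fold change was 0.88 (adjusted p = 0.00475). The call was kept in all 6 fits without 1 mouse (0.85 to 1.29) and with the adipocyte level as a covariate (1.09). It was also kept with index use as a covariate (1.34, adjusted p = 0.0478, edgeR). Only the mice at 1 µg/kg set that term, so the fit cannot separate index use from dose at 30 µg/kg. The call was lost with the clock score as a covariate (1.09, adjusted p = 0.653, edgeR). That fit called only 7 genes of the whole table at 30 µg/kg, and the score did not overlap between vehicle and that dose. Within the second index use, the difference between 30 and 3 µg/kg was 0.75 (adjusted p = 0.0727, edgeR), and DESeq2 called it (0.74, adjusted p = 0.0252). The counted genes *Gm26588* and *A730085K08Rik* overlap *Mgll* and *Abhd5*, and how reads in the overlaps were assigned is not given in the sources used here.

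*Abhd5*, the protein CGI-58 that switches on adipose triglyceride lipase, was 22.9, 24.4 and 25.4 CPM with vehicle, 29.4, 32.3 and 30.9 CPM with 3 µg/kg and 26.1, 38.3 and 38.9 CPM with 30 µg/kg. Every mouse at 0.1, 1, 3 and 30 µg/kg exceeded the vehicle mice. At 30 µg/kg it passed the adjusted p but not the fold change limit (1.42-fold, log2 fold change 0.51, standard error 0.13, 95% interval 0.23 to 0.78, adjusted p = 0.00964, edgeR), and without mouse 1 it passed both (0.64, adjusted p = 0.000352). *Pnpla2*, the lipase that it activates, was 122, 114 and 129 CPM with vehicle and 90, 128 and 128 CPM with 30 µg/kg, a log2 fold change of -0.08 with an interval of -0.33 to 0.17. *Plin3*, a perilipin and the most abundant of the 5 per length, was 237, 262 and 250.1 CPM with vehicle and 156, 237 and 260.1 CPM with 30 µg/kg. Mice 1 and 2 lay below the vehicle mice and the log2 fold change was -0.20 (adjusted p = 0.329, edgeR). At 10 µg/kg all 3 mice, at 212, 217 and 231 CPM, lay below the vehicle mice, with a log2 fold change of -0.18 that did not pass (adjusted p = 0.525).

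The 30 µg/kg group was the most uneven for these genes. The median over the 32 members of the SD of log2 CPM was 0.39 there and between 0.13 and 0.27 in the other 8 groups, and 20 of the 32 members had their widest spread in it. Mouse 1 had the lowest level of the 27 mice in 15 members, among them *Apob*, *Apoa1*, *Npc1l1*, *Creb3l3* and *Pla2g12b*, and the highest in *Cd36* and *Mgll*. Mouse 2 had the highest level of the 27 in 11 members, among them *Fabp2*, *Slc27a4*, *Dgat1*, *Apob*, *Apoa1*, *Apoa4* and *Npc1l1*. The median difference of the members from the vehicle mean was -0.44 on the log2 scale in mouse 1, 0.58 in mouse 2 and 0.18 in mouse 3. The enterocyte marker sum moved with it, at 20450, 39120 and 36100 CPM in mice 1, 2 and 3, the lowest, the highest and the next highest of the 27. Its part in the result was not tested. Only *Fabp1*, *Plin2*, *Mgll*, *Abhd5* and *Apoc2* were above the vehicle mean in all 3 mice, and *Gpat3*, *Pla2g12b*, *Abcg8*, *Abca1* and *Abcg5* were at or below it in all 3.

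**Figure D5:**
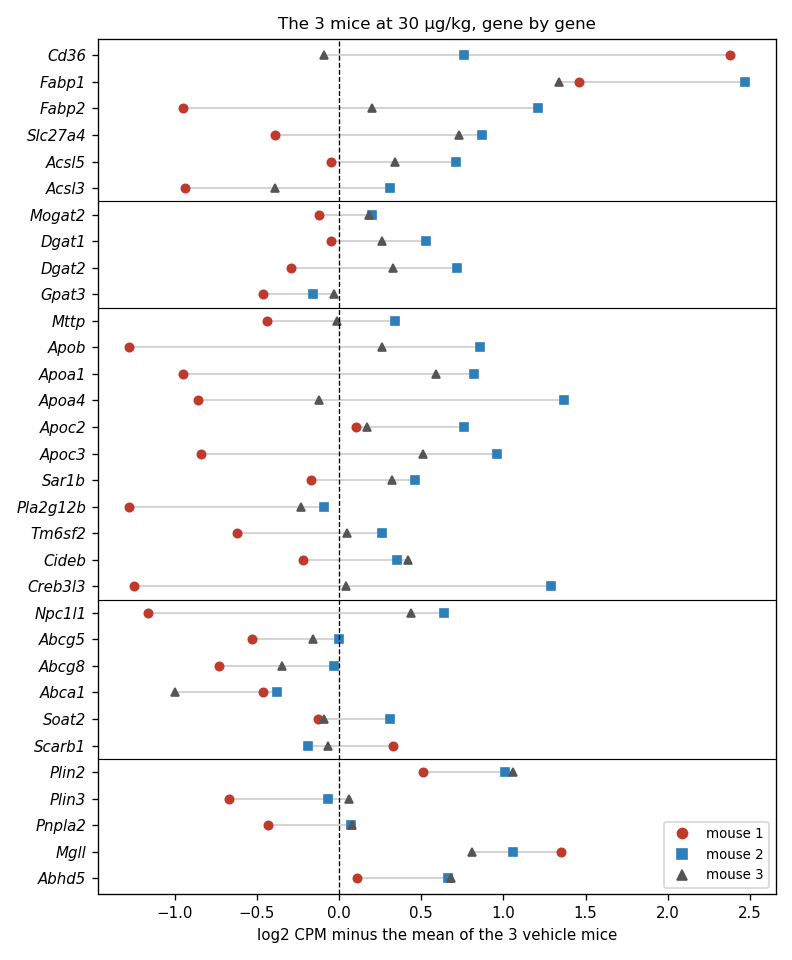
Difference of each mouse at 30 µg/kg from the mean of the 3 vehicle mice in log2 CPM, gene by gene. Mouse 1 lies to the left of mice 2 and 3 for most members (median -0.44 against 0.58 and 0.18), and *Fabp1*, *Plin2* and *Mgll* lie to the right of 0 in all 3 mice.

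Mouse 1 decided several values. Without it, 6 of 32 members were called at 30 µg/kg against vehicle, where 14.7% of all genes were called, all higher, *Slc27a4*, *Apoa1* and *Abhd5* being added to *Fabp1*, *Plin2* and *Mgll*. Against 10 µg/kg no member was called with all mice (0.340% of all genes), and 5 of 32 were called without mouse 1 (5.14% of all genes), all higher at 30 µg/kg, with log2 fold changes for *Apoa1* (0.98), *Apob* (0.74), *Npc1l1* (0.73), *Pla2g12b* (0.63) and *Slc27a4* (0.59). Mouse 1 at 30 µg/kg had 345 CPM of smooth muscle markers and 82.9 CPM of adipocyte markers. The part of these tissues in its low values was not tested. Between 30 and 3 µg/kg and between 10 and 3 µg/kg, no member was called with all mice, where 0.890% and 0.0418% of all genes were.

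A further 64 genes of the same pathways were followed, of which 58 were tested. At 30 µg/kg, 11 of the 58 (19.0%) were called, all higher, where 9.40% of all genes were called and 5.42% called higher. At 10 µg/kg 2 were called (3.45%, against 2.53% of all genes), *Ces1f* and *Pnliprp2*. The median of the 58 was 0.12 at 30 µg/kg, where that of all genes was 0.02. *Pnliprp2*, a pancreatic lipase relative, was 18.2, 12.7 and 25.2 CPM with vehicle, 69.9, 63.8 and 96.2 CPM with 10 µg/kg and 81.2, 66.3 and 76.8 CPM with 30 µg/kg, with no overlap (3.99-fold at 30 µg/kg, adjusted p = 0.000393, edgeR). Of 6 pancreatic markers, *Prss2*, *Pnlip*, *Cpa1*, *Cel* and *Ctrb1* were at 0 counts in 24, 24, 22, 21 and 17 of the 27 mice, and *Clps* had 5.575 to 21.67 CPM in all of them. Their part in the *Pnliprp2* values was not tested. *Ces1f*, a carboxylesterase, was 33.3, 39.8 and 37.4 CPM with vehicle, 42.9, 47.1 and 44.6 CPM with 3 µg/kg and 82.8, 73.7 and 89.8 CPM with 30 µg/kg, and was called against vehicle (log2 fold change 1.16) and against 3 µg/kg (0.87, adjusted p = 0.000266). *Slc27a2*, a fatty acid transport protein and synthetase, was 15.8, 22.2 and 18.8 CPM with vehicle and 28.9, 39.1 and 35.9 CPM with 30 µg/kg. Its log2 fold change was 0.87 against vehicle, 0.62 against 3 µg/kg and 0.71 against 10 µg/kg, all 3 called.

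*Ppara* and *Pparg*, nuclear receptors for fatty acids, had log2 fold changes of 0.91 (adjusted p = 1.7e-05) and 1.06 (adjusted p = 0.0254, edgeR). *Ppara* was 23.2, 30.3 and 27.2 CPM with vehicle and 46.5, 54.5 and 50.2 CPM with 30 µg/kg. *Pparg*, the receptor of fat cells, was 7.67, 6.01 and 6.92 CPM with vehicle and 12.2, 17.9 and 12.9 CPM with 30 µg/kg. *Cidec*, which fat cells also express, went from 9.36, 12.2 and 15.5 CPM to 18.5, 33.6 and 21.7 CPM. The adipocyte sums of mice 1, 2 and 3 at 30 µg/kg were 82.9, 2.63 and 0.651 CPM. The part of fat cells in both genes was not tested. None of the mice at 30 µg/kg overlapped with vehicle mice in *Ppara* or *Pparg*. The remaining calls, with their log2 fold changes, were *Acsl1*, a synthetase (0.63), *Cidec*, a droplet fusion protein (0.99), *Dennd5b* and *Tmem41b*, which act in chylomicron and lipoprotein secretion (0.62 and 0.68), *Gramd1b*, a carrier of cholesterol from the plasma membrane (1.09), and *Mylip*, the ligase that degrades the LDL receptor (1.09). For *Mylip* the vehicle mice had 19.1, 18.7 and 16.0 CPM and the mice at 30 µg/kg 17.4, 59.6 and 37.6 CPM, with mouse 1 within the vehicle range. No gene of the 58 was called lower.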

How the data were processed

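Epithelium was scraped from the distal ileum of 27 mice and sequenced as 1 library per mouse. The authors deposited whole-number read counts per Ensembl gene. Per the study's methods, reads were checked with FastQC 0.11.3, trimmed with Trimmomatic 0.33 and aligned with TopHat2 2.1.0 to GRCm38. HTSeq 0.6.1 is named in the submitters' processing notes, and counting options and strand are not given in the sources used here. Rows that name no gene held 44.48 to 49.52% of each file's total and were left out. Mice were grouped by the labelled dose. In the main fit, the edgeR p-values rest on the spread between mice of a group, estimated over all 27 mice and not only the groups compared.

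All genes were fitted together with edgeR 4.0.16 (R 4.3.3; TMM, filterByExpr with a minimum count of 10, quasi-likelihood test, Benjamini-Hochberg adjustment per comparison), checked on simulated data. The threshold for a call was 0.05 on the adjusted p, together with a change of 1.5-fold or more. Log2 CPM used a prior count of 2. Members called were described in full, with the most abundant uncalled member of each role. Other described members, and the extra genes per role, were chosen after their values were seen. The members and lists were chosen with earlier results of these data known. Alternatives were other scalings, filters, covariates and sample sets, and DESeq2 1.42.0.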

Additional observations from a re-analysis of the deposited data

How the results depend on the processing

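The number of members called moved with the following settings, and the cause was not tested. With library size alone, 5 were called at 30 µg/kg (9.87% of all genes) and 1 between 30 and 3 µg/kg (0.818%), and that scaling moved the median log2 fold change of all genes at 30 µg/kg from 0.02 to -0.11. With DESeq2, 2 were called between 30 and 3 µg/kg (1.68%). With index use in the model, 0 were called at 10 µg/kg (0.287%) and 0 for any difference among groups. With the clock score as a covariate, 0 were called at 10 (0.0239%) and 0 at 30 µg/kg (0.0418%). The trend was called in 0 members within the 16 mice of the first index use (0.144%) and 1 within the 11 of the second (1.44%). Without the 2 libraries highest in smooth muscle markers, chosen after the data were seen, 6 were called at 30 µg/kg (14.8%). Leaving out each mouse in turn gave 2 to 6 at 30 µg/kg (5.15 to 14.7% of all genes), 0 to 2 at 10 µg/kg (1.22 to 2.64%), 0 to 1 for 30 against 3 µg/kg (0.275 to 4.07%) and 0 to 5 for 30 against 10 µg/kg (0.0117 to 5.14%). Of 611 single-gene values under other settings, 536 kept their direction and side of the threshold, 18 lost the call, 12 gained it, and 45 changed sign. These are log2 fold changes at 30 µg/kg, uncalled in either fit. With the clock score as a covariate, the values were -0.80 (*Fabp2*), -0.27 (*Acsl5*), -0.02 (*Dgat1*), -0.41 (*Apoa4*), -0.40 (*Apoc2*), 0.02 (*Pla2g12b*), -0.09 (*Creb3l3*), -0.04 (*Npc1l1*) and -0.21 (*Soat2*). With *Lct* and *Gata4* as a covariate, the values were -0.13 (*Fabp2*), -0.01 (*Mogat2*), -0.28 (*Apoa4*), 0.00 (*Apoc2*), -0.07 (*Creb3l3*), -0.02 (*Npc1l1*) and -0.13 (*Soat2*). With index use as a covariate, the values were -0.04 (*Mogat2*), -0.03 (*Apob*), -0.36 (*Apoa4*), 0.06 (*Tm6sf2*) and 0.04 (*Pnpla2*). With library size alone, the values were -0.06 (*Mogat2*), -0.01 (*Npc1l1*), -0.09 (*Soat2*) and -0.09 (*Scarb1*). With the smooth muscle level as a covariate, the values were 0.03 (*Mttp*) and -0.07 (*Scarb1*). Without the 2 libraries highest in smooth muscle markers, the values were 0.14 (*Mttp*), 0.13 (*Tm6sf2*), -0.19 (*Scarb1*) and 0.04 (*Pnpla2*). With no filter on low counts, the values were -0.01 (*Scarb1*). Leaving out single mice, the values ranged from -0.28 to 0.74 (*Fabp2*), -0.22 to 0.14 (*Mttp*), -0.31 to 0.56 (*Apob*), -0.52 to 0.70 (*Apoa4*), -0.03 to 0.72 (*Apoc3*), -0.25 to 0.13 (*Tm6sf2*), -0.49 to 0.75 (*Creb3l3*), -0.15 to 0.51 (*Npc1l1*), -0.11 to 0.11 (*Soat2*), -0.19 to 0.13 (*Scarb1*) and -0.16 to 0.04 (*Pnpla2*). No paired analysis was possible because the labels give mice of different groups no shared replicate number. The fewest reads in any mouse were 9 for *Cd36*, 21 for *Scarb1* and 28 for *Fabp1*, and 3 mice per group limit every interval.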

Other observations

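Some genes known to be switched on by the fatty acid receptor PPARA were higher at 30 µg/kg beside its own transcript, and those named here were chosen after their values were seen. *Pdk4*, which inhibits pyruvate dehydrogenase, was 1.27, 2.13 and 1.87 CPM with vehicle and 3.37, 22.7 and 10.8 CPM with 30 µg/kg (log2 fold change 2.80, adjusted p = 0.000979, edgeR). *Angptl4*, a secreted inhibitor of lipases, was 15.6, 24.8 and 12.9 CPM with vehicle and 54.1, 173 and 189 CPM with 30 µg/kg (log2 fold change 2.97, adjusted p = 3.7e-05, edgeR). In both genes all 3 mice at 30 µg/kg lay above all 3 vehicle mice, mouse 1 being the lowest of them.

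Of 5 targets of the sterol receptor LXR, *Mylip* alone was called at 30 µg/kg and the median was -0.17. Of 7 targets of SREBP2, the regulator of cholesterol synthesis, none was called, with log2 fold changes of 0.09 to 0.53 and a median of 0.36.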
